A study of Mus musculus with 4 samples.

Results

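The C/EBP transcription factors (CCAAT/enhancer-binding proteins) were followed as 4 genes, *Cebpa*, *Cebpb*, *Cebpd* and *Cebpg*, chosen by gene symbol from the 31053 genes counted in every library. Pancreatic islets, the hormone-secreting micro-organs of the pancreas, came from adult male C57BL/6 mice (written C57BL6/J in the study's methods). All 4 samples were drawn from 1 pool of islets from several mice and so share their animals. The intact islets were left untreated or were exposed in culture for 6 h to human recombinant IL-1β, to mouse IFN-γ, or to both cytokines, and were then dissociated for droplet-based single-cell RNA sequencing. Each condition gave 1 library, so no difference between conditions has a replicate check and no test between conditions was made. All intervals below are 95% intervals that cover counting error only.

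C/EBP proteins bind DNA as dimers through a basic leucine zipper (bZIP), with each other or with relatives such as ATF4 and CHOP. C/EBPβ and C/EBPδ are known from acute-phase and inflammatory gene expression downstream of IL-1 and IL-6, and C/EBPβ has also been described as a repressor of insulin gene transcription. C/EBPα is known for driving liver, adipose and myeloid differentiation. C/EBPγ lacks an activation domain of its own and pairs with ATF4 in the response to amino acid shortage. In islet cells, IL-1β activates NF-κB and MAP kinase signaling, whereas IFN-γ acts through JAK kinases.

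All 4 genes were matched by Ensembl identifier to the GENCODE M21 annotation of GRCm38. *Cebpa* (ENSMUSG00000034957) lies at chr7:35119293-35121928 on the plus strand and *Cebpg* (ENSMUSG00000056216) at chr7:35046422-35056573 on the minus strand, 62.7 kb apart. *Cebpb* (ENSMUSG00000056501) lies at chr2:167688915-167690418 on the plus strand and has 1 exon. *Cebpd* (ENSMUSG00000071637) lies at chr16:15887286-15891031 on the plus strand. These last 2 genes overlap others on the opposite strand, *Cebpb* over its first part with *Tmem189* (chr2:167688915-167689822) and *Cebpd* over its 3′ end with *Spidr* (chr16:15889224-15891031). On the opposite strand *Cebpa* also overlaps *Gm45091* and *Cebpg* overlaps *Gm45095*, neither with a UMI in β-like cells. On its own strand *Cebpg* overlaps *Gm44836* and *Gm45094*, for which no counts were available. No source used here gives the strand setting of the counting. Scaled to a total of 1000000 UMIs (CPM), *Tmem189* in β-like cells was at 10.7 untreated, at 14.6 with IL-1β, at 14.7 with IFN-γ and at 11.1 with both, and *Spidr* at 8.04, 31.8, 10.0 and 19.7 in the same order.

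The 250 bases before the annotated start are shown because 3 of the 4 genes had an entry among 32851 RefSeq promoters of GRCm38.p6, and because these genes moved to different degrees in the same cells. They are written 5′ to 3′ in the direction of transcription, with motif matches in capitals, for chr7:35119043-35119292 (plus strand), chr2:167688665-167688914 (plus strand) and chr7:35056567-35056816 (minus strand), respectively.
Cebpa: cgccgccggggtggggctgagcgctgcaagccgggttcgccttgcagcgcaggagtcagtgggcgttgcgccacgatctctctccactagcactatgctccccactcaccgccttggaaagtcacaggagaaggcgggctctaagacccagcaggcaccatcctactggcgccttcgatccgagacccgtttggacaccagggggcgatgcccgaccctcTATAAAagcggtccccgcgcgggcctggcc
Cebpb: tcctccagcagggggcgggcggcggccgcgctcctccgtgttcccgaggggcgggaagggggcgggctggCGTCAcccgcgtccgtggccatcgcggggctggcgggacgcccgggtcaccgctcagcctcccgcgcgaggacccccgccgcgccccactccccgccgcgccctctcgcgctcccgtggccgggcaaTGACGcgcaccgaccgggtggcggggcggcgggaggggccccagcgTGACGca
Cebpg: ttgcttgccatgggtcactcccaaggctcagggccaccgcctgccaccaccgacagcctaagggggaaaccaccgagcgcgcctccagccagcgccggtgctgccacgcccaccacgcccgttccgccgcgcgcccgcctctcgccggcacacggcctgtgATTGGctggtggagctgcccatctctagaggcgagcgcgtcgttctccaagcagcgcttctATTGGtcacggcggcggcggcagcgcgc
The window of *Cebpa* held a TATA box (TATAAA) 30 to 25 bases before the start. That of *Cebpb* held 3 matches to the ATF and CREB core (TGACG), at 180 to 176 bases as CGTCA, at 53 to 49 bases and at 7 to 3 bases before the start. That of *Cebpg* held 2 CCAAT boxes, both read as ATTGG, at 89 to 85 and 28 to 24 bases. Both strands were searched, and no matches overlapped each other. Among all promoters of this length, 12.4% held TATAAA, 17.8% TGACG and 33.8% CCAAT. The letters TTNNGCAA (C/EBP), TTCNNNGAA (STAT) and TGANTCA (AP-1) and the NF-κB motif were not in these 3 windows, against 9.56%, 7.02%, 6.75% and 7.25% of all promoters. The GC content was 66.4% for *Cebpa*, 81.6% for *Cebpb* and 70.8% for *Cebpg*, against a median of 52.4%.

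The limits on cells were 200 to 4000 genes and 12% mitochondrial UMIs, which left 1521 cells of the untreated library, 2018 of IL-1β, 2122 of IFN-γ and 1810 of the combined one. A unique molecular identifier (UMI) marks each captured transcript, so the counts are of molecules. Median UMIs per kept cell were 15454, 7462.5, 9615 and 11123.5, respectively, so the untreated library was the deepest. Pairs of libraries shared between 1 and 4 barcodes, of which at most 2 per pair were kept cells. Cells were divided by their share of hormone UMIs and, for other cells, by marker genes. β-like cells (insulin) numbered 1179, 1153, 1301 and 1258 in the order untreated, IL-1β, IFN-γ and both, and this order is kept below. α-like cells (glucagon) numbered 86, 324, 288 and 159, and δ-like cells (somatostatin) 54, 151, 154 and 112. Cells rich in *Ppy*, the pancreatic polypeptide gene, numbered 31, 39, 74 and 56. They are called Ppy-rich because too few of their other markers were detected for a cell type name. Their limit decides much of the class, since 346 kept cells lay within 2-fold of it, and 121 of the 200 Ppy-rich cells fell in the *Ppy* cluster when cells were clustered instead. Endothelial-like cells numbered 29, 32, 45 and 22, and macrophage-like cells 32, 37, 43 and 30. Mesenchymal-like, ductal-like and acinar-like cells were fewer, at 57, 57 and 56 over all libraries. A further 432 cells with more than 1 hormone or cell type signature and 180 unclear cells were not used. Of the 432, 173 fell in δ clusters under clustering, beside 449 δ-like cells, so the δ-like class leaves out part of those clusters. When cells were clustered, many clusters followed the libraries. Among β clusters, 712 of 741 cells were untreated in one, 928 of 950 IL-1β, 823 of 844 IFN-γ and 620 of 630 both in others. An α cluster held 307 of 314 cells from IL-1β and a δ cluster 124 of 125 from both. Another β cluster, of 460 cells, held cells of every library. Cells of a class thus sat largely in different clusters in each library.

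The markers were checked against these names. All 9 β-cell markers, 7 α-cell markers, 10 endothelial markers and 12 macrophage markers were found in at least 10% of the cells of their class. *Mafa*, *Ucn3* and *G6pc2* were among the genes that most set β-like cells apart, as were *Irx1* and *Irx2* for α-like cells and *C1qb*, *Ctss* and *Lyz2* for macrophage-like cells. Of 6 δ-cell markers 4 were found, with *Prg4* at 0. Non-endocrine cells also held insulin UMIs, at a median of 0.542%, 0.0934%, 0.251% and 0.0985% of their UMIs, and the part of such free RNA in the levels below was not tested.

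*Cebpd* was the C/EBP gene with the largest difference between libraries in endocrine cells. In β-like cells its untreated level was 58.5 CPM (55.2 to 62.0). It was 939.9 (921 to 959) after IL-1β, 102 (96.9 to 108) after IFN-γ and 670.3 (657 to 683) after both. All 4 intervals lay apart, with IL-1β highest and untreated lowest. The ratio to the untreated library was 16.1 (15.1 to 17.1) for IL-1β, 1.75 (1.61 to 1.89) for IFN-γ and 11.5 (10.8 to 12.2) for the combination. Adding IFN-γ to IL-1β went with a lower level, at a ratio of 0.713 (0.693 to 0.734), or 0.825 (0.802 to 0.849) with hormone genes out of the totals, whereas adding IL-1β to IFN-γ went with a level 6.56 times as high (6.21 to 6.94). For the pair of both cytokines over IL-1β, the median β-like gene had a ratio of 0.804, and *Cebpd* was at place 4933 of 7350 genes.

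*Cebpb* followed the same order in β-like cells over a smaller range. Its levels were 62.1 (58.7 to 65.7), 319.7 (309 to 331), 112 (107 to 118) and 213 (206 to 220.5) CPM. IL-1β gave a ratio of 5.15 (4.82 to 5.50) to the untreated library, IFN-γ 1.80 (1.67 to 1.94) and both 3.43 (3.21 to 3.67). As for *Cebpd*, the combined library lay below IL-1β alone, at a ratio of 0.666 (0.634 to 0.7001), or 0.771 (0.734 to 0.8098) with hormone genes left out. *Cebpg* was at 68.9 (65.3 to 72.7), 182 (174 to 191), 94.4 (89.4 to 99.6) and 178 (171 to 185) CPM. Here the IL-1β and combined libraries overlapped, with a ratio of 0.976 (0.919 to 1.04) between them, and both lay above IFN-γ and untreated. With hormone genes out of the totals this *Cebpg* ratio was 1.13 (1.06 to 1.1996), so the direction between these libraries depended on the scaling. *Cebpa* was nearly undetected in β-like cells, with 8, 5, 3 and 13 UMIs.

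**Figure D1:**
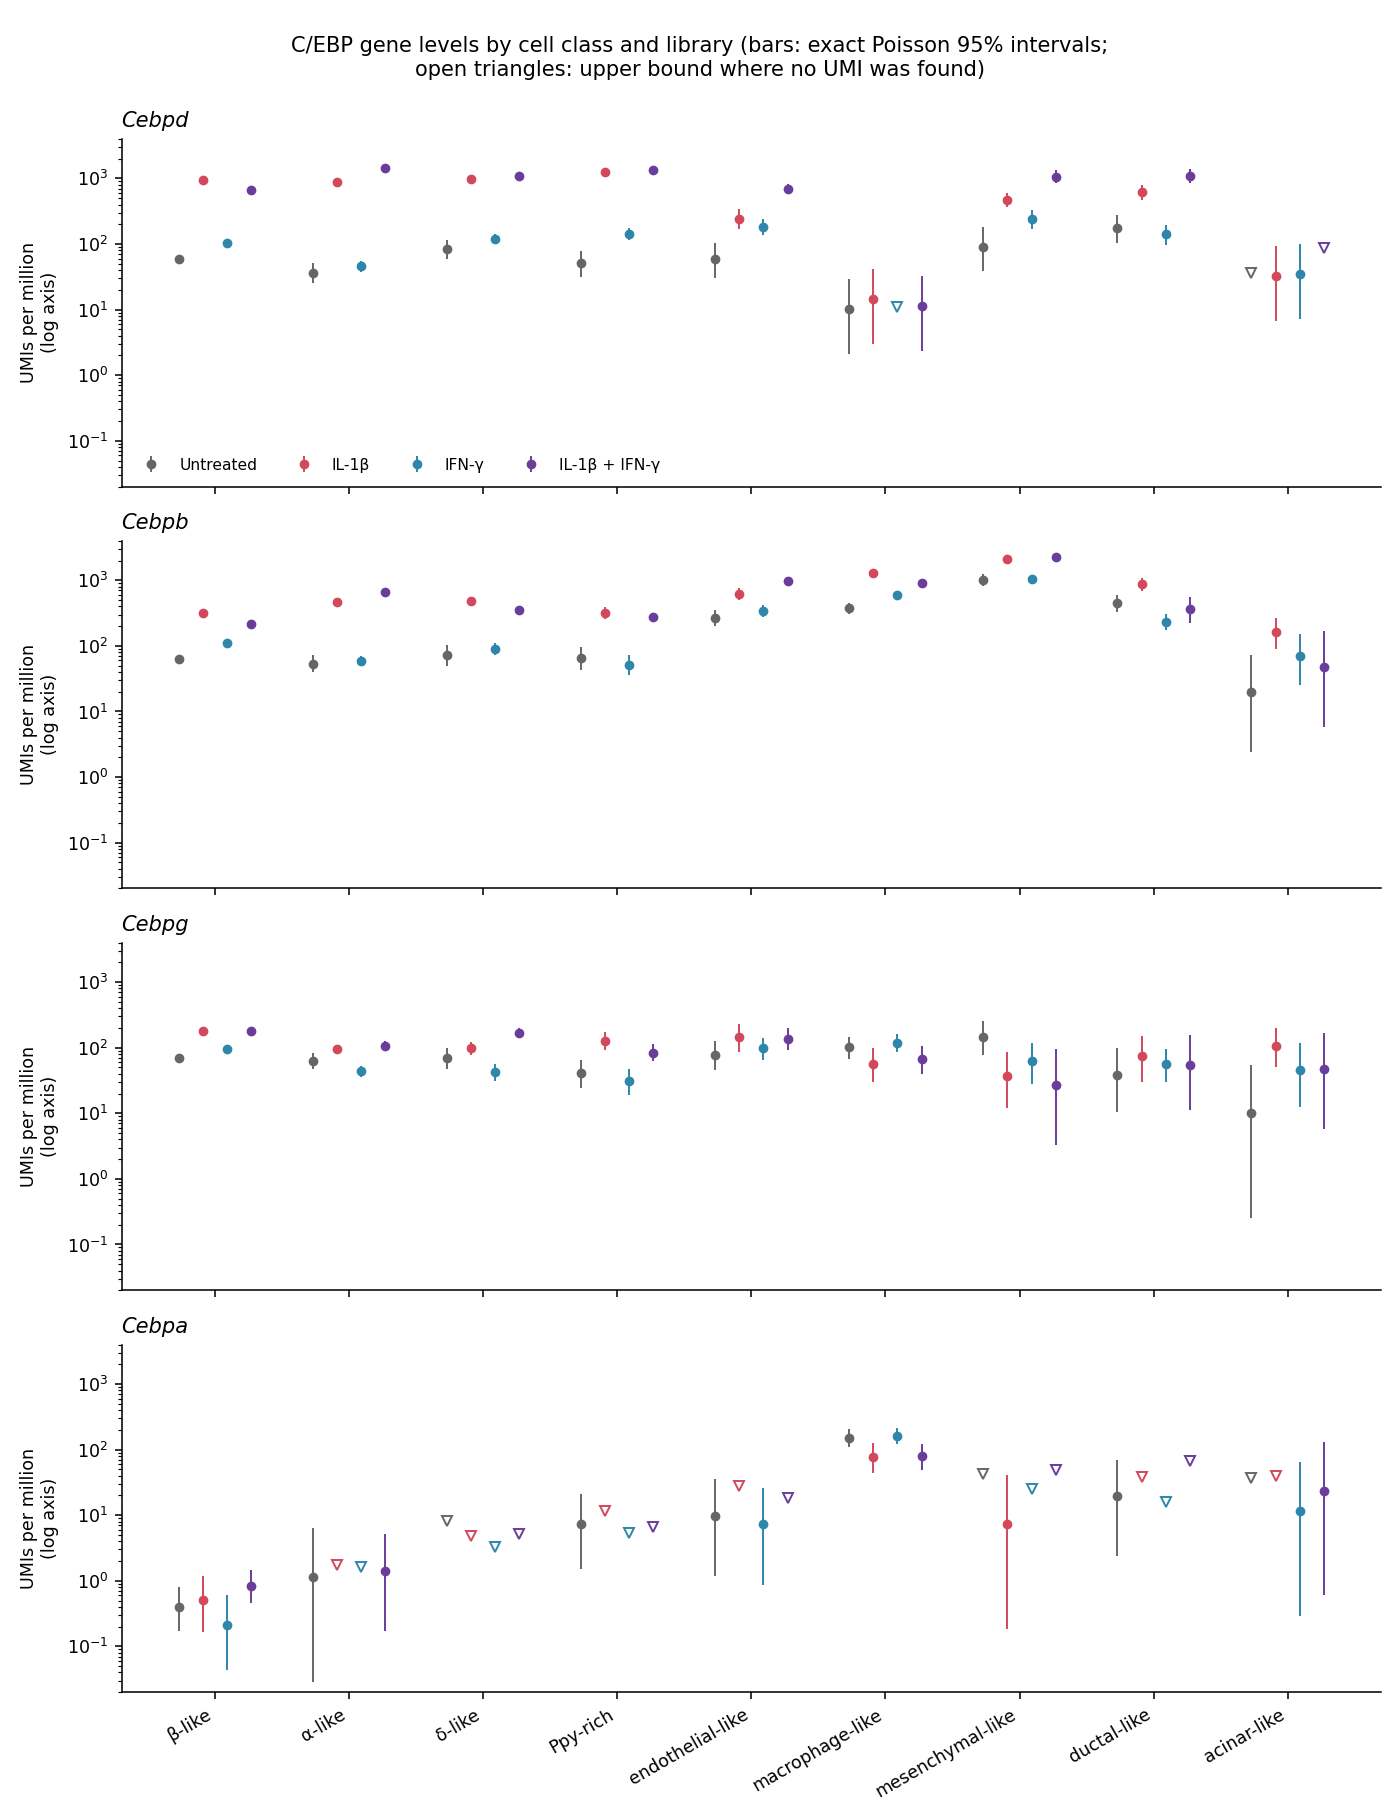
CPM (log axis) of each C/EBP gene in 9 cell classes, colored by library, with exact Poisson 95% intervals and open triangles for the upper bound where no UMI was found. *Cebpd* in β-like cells ranges from 58.5 in the untreated library to 939.9 with IL-1β, while *Cebpa* stands at 76.5 to 162 in macrophage-like cells.

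A gene was counted as past the fold when its CPM ratio was at least 2 or at most 0.5, among genes with a mean of at least 10 CPM over the pair of libraries. In β-like cells, 3 of the 3 C/EBP genes above this minimum (all but *Cebpa*) were past the fold upward with IL-1β, against 17.5% of all 7435 genes. With IFN-γ it was 0 of 3, against 3.74%, and with both cytokines 3 of 3, against 11.2%. None was past the fold downward, against 2.7%, 0.0813% and 5.76% of genes. With both cytokines against IL-1β alone, 0 of 3 were past the fold, while 1.97% of genes were upward and 4.12% downward. With both against IFN-γ alone, *Cebpd* was past the fold upward and the other 2 were not, against 4.86% of genes upward and 8.46% downward.

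Ranked from the highest ratio with IL-1β, *Cebpd* was at place 55, *Cebpb* at 176 and *Cebpg* at 546 of 7435 genes. With both cytokines they were at places 122, 371 and 514 of 7123 genes. With IFN-γ, *Cebpb* was at place 434, *Cebpd* at 516 and *Cebpg* at 2447 of 7381, but the intervals of *Cebpb* and *Cebpd* overlapped, and as means over cells their ratios were 1.54 and 1.62, in the other order. The ratios depend on the library totals used for scaling. Hormone genes took 47.6% of β-like UMIs without treatment and 28.4%, 34.2% and 38.1% under IL-1β, IFN-γ and both, and the median gene had a log2 ratio of 0.43, 0.33 and 0.12 to the untreated library. Relative to the median gene, the IL-1β ratio was 11.9 for *Cebpd*, 3.81 for *Cebpb* and 1.96 for *Cebpg*. With hormone genes left out of the totals, *Cebpd* gave ratios of 11.8, 1.39 and 9.70 and *Cebpb* 3.77, 1.44 and 2.90, whereas *Cebpg* gave 1.93, 1.09 and 2.18 and was no longer past the fold with IL-1β. The share of upward genes among all genes past the fold went from 86.6%, 97.9% and 66.1% to 41.3%, 74.3% and 40.4% under that scaling.

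**Figure D2:**
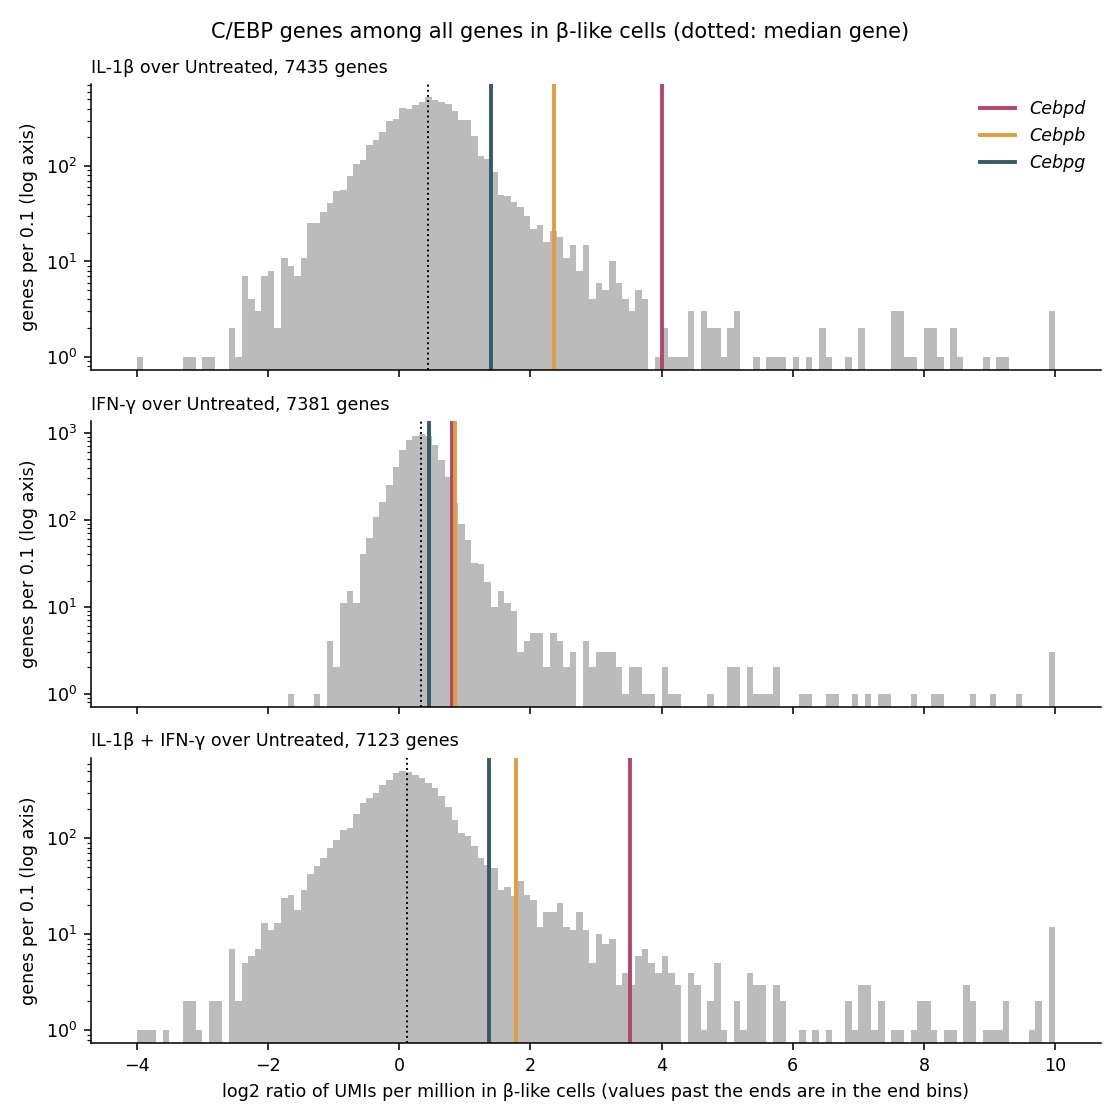
Number of genes (log axis) by log2 ratio of CPM in β-like cells, for each treated library over the untreated one, with colored lines at *Cebpd*, *Cebpb* and *Cebpg* and a dotted line at the median gene. *Cebpd* lies far to the right with IL-1β and with both cytokines (ratios 16.1 and 11.5) and close to *Cebpb* with IFN-γ (1.75 and 1.80).

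The number of β-like cells with a *Cebpd* UMI was also higher. A UMI was found in 38.5%, 89.1%, 46.4% and 94.7% of β-like cells, at median depths of 17134, 8265, 10952 and 12111.5 UMIs. When each cell was thinned to 4000 UMIs, which left out 40, 76, 57 and 31 shallower cells, the shares were 18.0%, 87.2%, 25.7% and 84.4%. Macrophage-like cells, in which *Cebpd* was nearly absent, are given for comparison only. Taken for their low level, they do not measure the background in β-like cells, which was not tested. Without thinning, macrophage-like cells had a *Cebpd* UMI in 9.38%, 8.11%, 0% and 10.0% of cells, at median depths of 10068.5, 5170, 8441 and 9421.5 UMIs. These shares rest on 3, 3, 0 and 3 cells, so their intervals are wide. The 0 of 43 cells with IFN-γ allows a share of cells with a UMI of up to 6.98% by a limit of 3 counts, or 8.22% as the exact binomial upper bound. Neither value limits the share of cells that express the gene below detection. Thinned shares for *Cebpb* in β-like cells were 21.9%, 61.6%, 34.3% and 53.3%, and for *Cebpg* 23.0%, 48.5%, 31.8% and 49.1%.

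Within the thinned β-like cells, the median cell held 0, 3, 0 and 2 *Cebpd* UMIs and the mean was 0.252, 3.85, 0.407 and 2.80. The highest decile began at 1, 8, 1 and 6 UMIs. At least 3 *Cebpd* UMIs were found in 1.23%, 62.3%, 3.94% and 47.0% of cells, so most IL-1β-treated β-like cells shared the high level, and the distributions of the untreated and IFN-γ libraries stayed close to 0. In the IL-1β library, *Cebpb* was found in 64.3% (61.2 to 67.4) of thinned cells with *Cebpd* and in 42.8% (34.4 to 51.5) of those without. In the untreated library these shares were 22.9% (17.4 to 29.3) and 21.6% (19.0 to 24.4), which overlap. For *Cebpg* the untreated shares lay apart, at 31.2% (24.9 to 38.0) of cells with *Cebpd* and 21.2% (18.6 to 24.0) of those without. With IL-1β the *Cebpg* shares of 49.5% (46.3 to 52.8) and 41.3% (33.0 to 49.99) overlapped. In the combined library the shares lay apart for both genes. They were 55.0% (51.9 to 58.1) and 44.0% (36.8 to 51.3) for *Cebpb*, and 51.0% (47.9 to 54.1) and 38.7% (31.8 to 46.0) for *Cebpg*. In the IFN-γ library they overlapped for both genes.

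**Figure D3:**
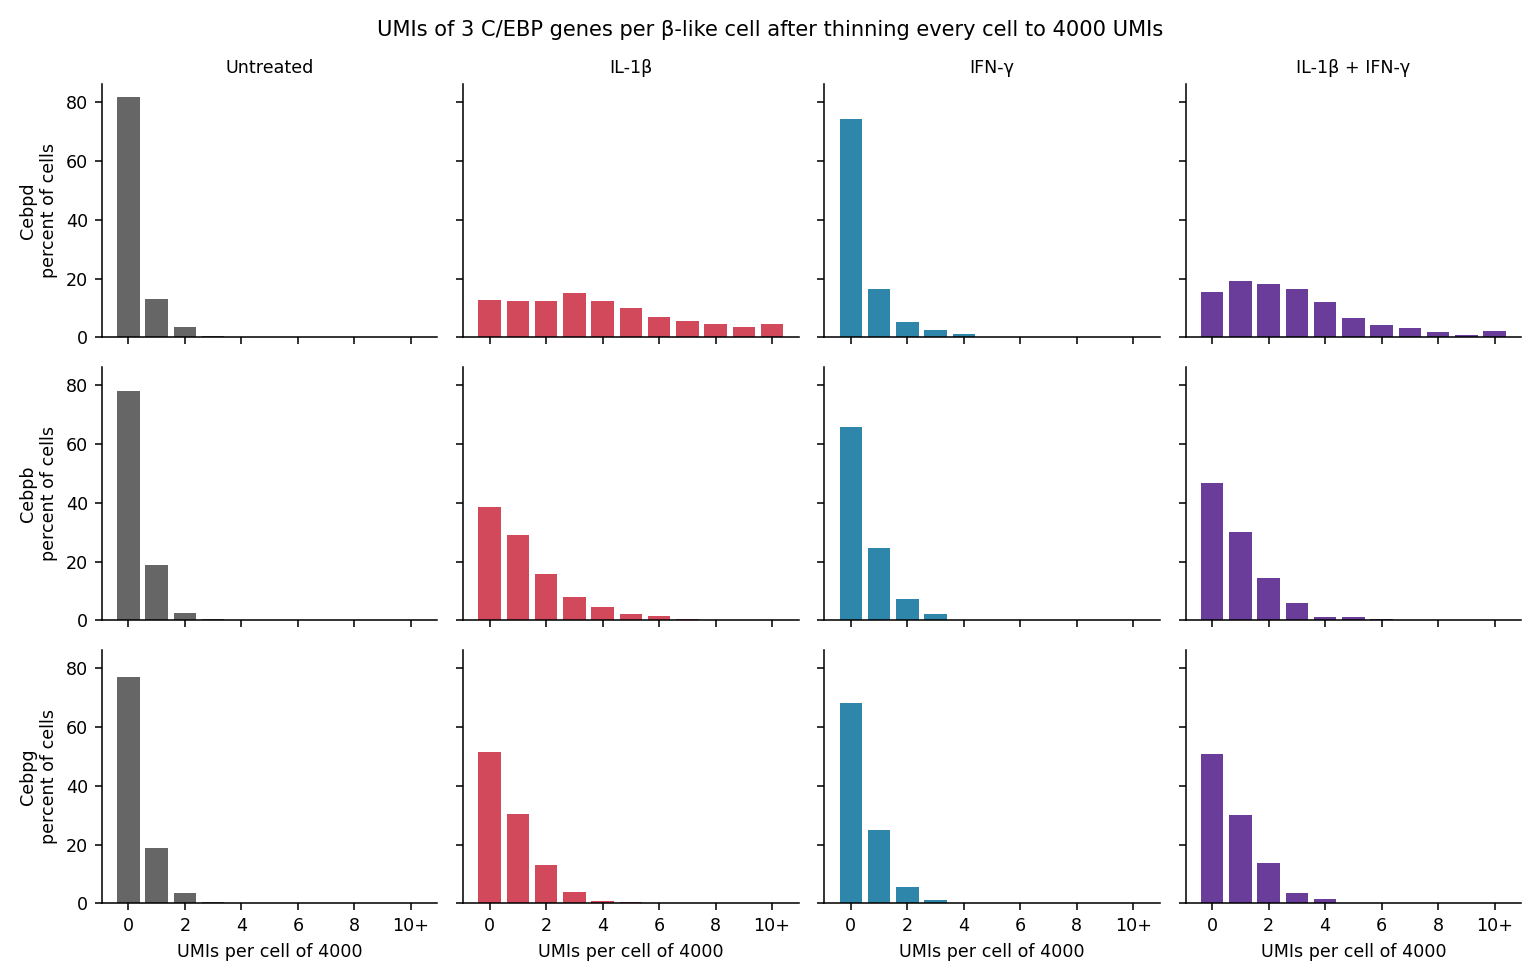
Percent of β-like cells (vertical axis) by number of UMIs per cell after thinning to 4000 UMIs (horizontal axis), for *Cebpd*, *Cebpb* and *Cebpg* in rows and the 4 libraries in columns. *Cebpd* has a median of 3 UMIs with IL-1β and 2 with both cytokines, against 0 in the untreated and IFN-γ libraries.

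Treated cells were also divided by other transcripts. In the IL-1β library, *Cebpd* was at 995 CPM in the 328 β-like cells with a *Nos2* UMI (*Nos2* encodes inducible nitric oxide synthase) and at 914 in the 825 without. With both cytokines it was at 683 in 888 cells and at 632 in 370 cells. The β-like cells with a *Nos2* UMI were also deeper. Their median depth was 9100.5 against 7795 UMIs with IL-1β and 12737.5 against 10289 with both. In the IL-1β library *Cebpb* was at 371 (350 to 394) CPM with a *Nos2* UMI and 296 (283 to 309) without, and *Cebpg* at 200 and 174. In δ-like cells of the combined library *Cebpd* was at 1268 (1164 to 1378) with a *Nos2* UMI and 828 (723 to 944) without. With IL-1β alone the δ-like intervals overlapped, at 1101 and 954. In α-like cells they also overlapped, at 780 (651 to 928) and 893 (852 to 936) with IL-1β and 1490 and 1411 with both. In β-like cells with at least 10 *Hspa1a* UMIs per 10000 (*Hspa1a* encodes a heat shock chaperone), *Cebpd* was at 362 (318 to 411) CPM with IL-1β, against 983 (963 to 1004) in the others. With both cytokines these levels were 443 and 683. For the same split with IL-1β, *Cebpb* was at 172 and 331 CPM, whereas *Cebpg* was close, at 177 and 182. In α-like cells of the combined library the direction for *Cebpd* was the opposite. It was at 1872 (1745 to 2006) in 49 cells with high *Hspa1a* and at 1249 (1180 to 1321) in the other 110. In δ-like cells of that library both *Cebpd* levels were close, at 1101 (976 to 1236) and 1100.1 (1005 to 1202).

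In α-like cells the highest *Cebpd* level was in the combined library. The levels were 36.6 (25 to 51.6), 885 (845 to 925), 46.2 (37.8 to 55.9) and 1439 (1377 to 1503) CPM, and only the untreated and IFN-γ intervals overlapped. The ratios to the untreated library were 24.2 (17.1 to 35.5), 1.26 (0.844 to 1.94) and 39.4 (27.8 to 57.7). Thinned to 4000 UMIs per cell, the *Cebpd* ratios were 41.3 with IL-1β and 67.8 with both. The thinned untreated level under them was 21.9 CPM, with a UMI in 8.75% of 80 cells, so they rest on few UMIs. *Cebpb* showed the same order, at 53.7, 473, 59.3 and 669 CPM, with ratios of 8.80 (6.57 to 12.1), 1.10 (0.787 to 1.57) and 12.5 (9.29 to 17.1). The combined library lay above IL-1β for both genes, at ratios of 1.63 (1.53 to 1.73) for *Cebpd* and 1.42 (1.29 to 1.55) for *Cebpb*. These are the opposite directions from β-like cells, also with hormone genes left out, and the difference between the classes was not tested. *Cebpg* was at 62.8, 94.8, 43.6 and 107 CPM. Its ratios of 1.51, 0.694 and 1.70 did not reach the fold. Past the fold upward were 2 of 3 C/EBP genes with IL-1β, against 7.29% of genes, 0 under IFN-γ, against 4.67%, and 2 under both, against 8.96%. Downward there were 0 under IL-1β, against 8.95%. For both cytokines over IL-1β alone none passed the fold, against 4.09% upward and 4.33% downward, and over IFN-γ alone 3 of 3 did so upward, against 5.82%.

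In δ-like cells *Cebpd* was at 83.7 (59.2 to 115), 991 (921 to 1064), 119 (99.3 to 141) and 1100.3 (1024 to 1180) CPM. The untreated and IFN-γ intervals overlapped, as did those of IL-1β and both, and the pairs lay far apart. The ratios to the untreated library were 11.8 (8.55 to 16.9), 1.42 (0.982 to 2.09) and 13.1 (9.49 to 18.7). *Cebpb* was at 72.7, 481, 90.1 and 356 CPM and so, as in β-like cells, was lower with both cytokines than with IL-1β, at a ratio of 0.741 (0.629 to 0.873). *Cebpg* was highest in the combined library, at 70.5 (48.2 to 99.5), 97.5 (76.6 to 122), 42.8 (31.6 to 56.8) and 169.7 (141 to 203) CPM. Its ratio to the untreated library was 2.41 (1.62 to 3.68) with both cytokines, and 1.83 as a mean over cells. Upward, 2 of 3 C/EBP genes were past the fold for IL-1β, against 9.9% of genes, 0 for IFN-γ, against 5.05%, and 3 for both, against 12.2%. None was past it downward for both, against 20.3%. For both cytokines over IL-1β alone it was 0 upward, against 6.67%, and over IFN-γ alone 3 of 3, against 10.2%.

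The level differences from the untreated library were also set beside the sum of the differences with each cytokine alone. For *Cebpd* in β-like cells the combined library was 612 CPM above untreated and the sum was 925. In α-like cells these were 1402.5 and 858, and in δ-like cells 1017 and 942. For *Cebpb* they were 151 and 307 in β-like cells, 615 and 424 in α-like cells, and 284 and 426 in δ-like cells. The combined level was thus below the sum in β-like cells and above it in α-like cells for both genes.

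Ppy-rich cells had *Cebpd* at 50.9, 1243, 144 and 1331 CPM, and *Cebpb* at 65.5, 319, 51.4 and 273. *Cebpd* had ratios of 24.4 (15.7 to 39.9), 2.83 (1.75 to 4.77) and 26.1 (17.0 to 42.5) to the untreated library, so here IFN-γ alone also passed the fold. The C/EBP genes past the fold upward were 3 of 3 for IL-1β, 1 for IFN-γ and 3 for both, against 21%, 12% and 13.3% of genes. *Cebpg* with both cytokines was just past the fold at 2.05, and at 1.89 without called doublets, 1.85 without hormone genes and 1.797 as a mean over cells. None was past it downward under IFN-γ, against 4.16%. For both cytokines over IL-1β alone the count was 0, against 6.49% upward and 19.2% downward, and over IFN-γ alone 3 of 3 upward, against 8.06%, of which *Cebpg* was at 1.81 in thinned cells.

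Endothelial-like cells had smaller *Cebpd* ratios with IL-1β and a further difference with both cytokines. The levels were 59.0 (30.5 to 103), 245 (167 to 346), 185 (137 to 243) and 685 (576 to 808) CPM, from 12, 32, 51 and 140 UMIs. The combined library stood apart from the other 3. The ratios to the untreated library were 4.15 (2.08 to 8.84), 3.13 (1.64 to 6.44) and 11.6 (6.43 to 23.0), and that of both cytokines to IL-1β was 2.80 (1.89 to 4.25). *Cebpb* was at 271, 620, 340.2 and 963 CPM, with ratios of 2.29 (1.61 to 3.29), 1.26 (0.892 to 1.79) and 3.56 (2.63 to 4.89). C/EBP genes past the fold upward were 2 of 3 for IL-1β, 1 for IFN-γ and 2 for both, against 14.8%, 11% and 10.7% of genes. With both cytokines against IL-1β alone it was 1, against 11.6%. Without the upper limit on genes per cell, *Cebpb* was at ratios of 1.85 with IL-1β and 1.795 with both and *Cebpd* at 1.97 with IFN-γ, none past the fold, and *Cebpd* was at 2.59 with IL-1β and 5.93 with both.

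In macrophage-like cells *Cebpd* was nearly absent in all libraries. There were 3, 3, 0 and 3 UMIs, or 10.1, 14.3, 0 and 11.2 CPM, with upper bounds of 29.5, 41.9, 11.1 and 32.9. These cells nevertheless held *Cebpb* at 377 (310 to 453), 1281 (1132 to 1444), 588 (508 to 676) and 911 (800 to 1033) CPM. The *Cebpb* ratios to the untreated library were 3.40 (2.72 to 4.28), 1.56 (1.23 to 1.99) and 2.42 (1.92 to 3.05), and the combined library lay below IL-1β at 0.711 (0.595 to 0.849). *Cebpa* was found mainly here. Macrophage-like cells held 72.6%, 69.6%, 90% and 56.8% of all *Cebpa* UMIs of kept cells. Its levels were 151 (110 to 203), 76.5 (43.7 to 124), 162 (122 to 211) and 78.7 (48.7 to 120) CPM, from 45, 16, 54 and 21 UMIs, so that the libraries with IL-1β were the lower ones. The *Cebpa* ratios to the untreated library were 0.505 (0.267 to 0.911), 1.07 (0.707 to 1.63) and 0.520 (0.294 to 0.891). With both cytokines against IFN-γ alone, *Cebpa* was past the fold downward at 0.486 (0.279 to 0.818), against 9.61% of genes, though at 0.692 in thinned cells it was not. Upward, 1 of 4, 0 of 3 and 1 of 4 C/EBP genes were past the fold with IL-1β, IFN-γ and both, against 13.3%, 13.5% and 13% of genes, and this gene was *Cebpb*.

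**Figure D4:**
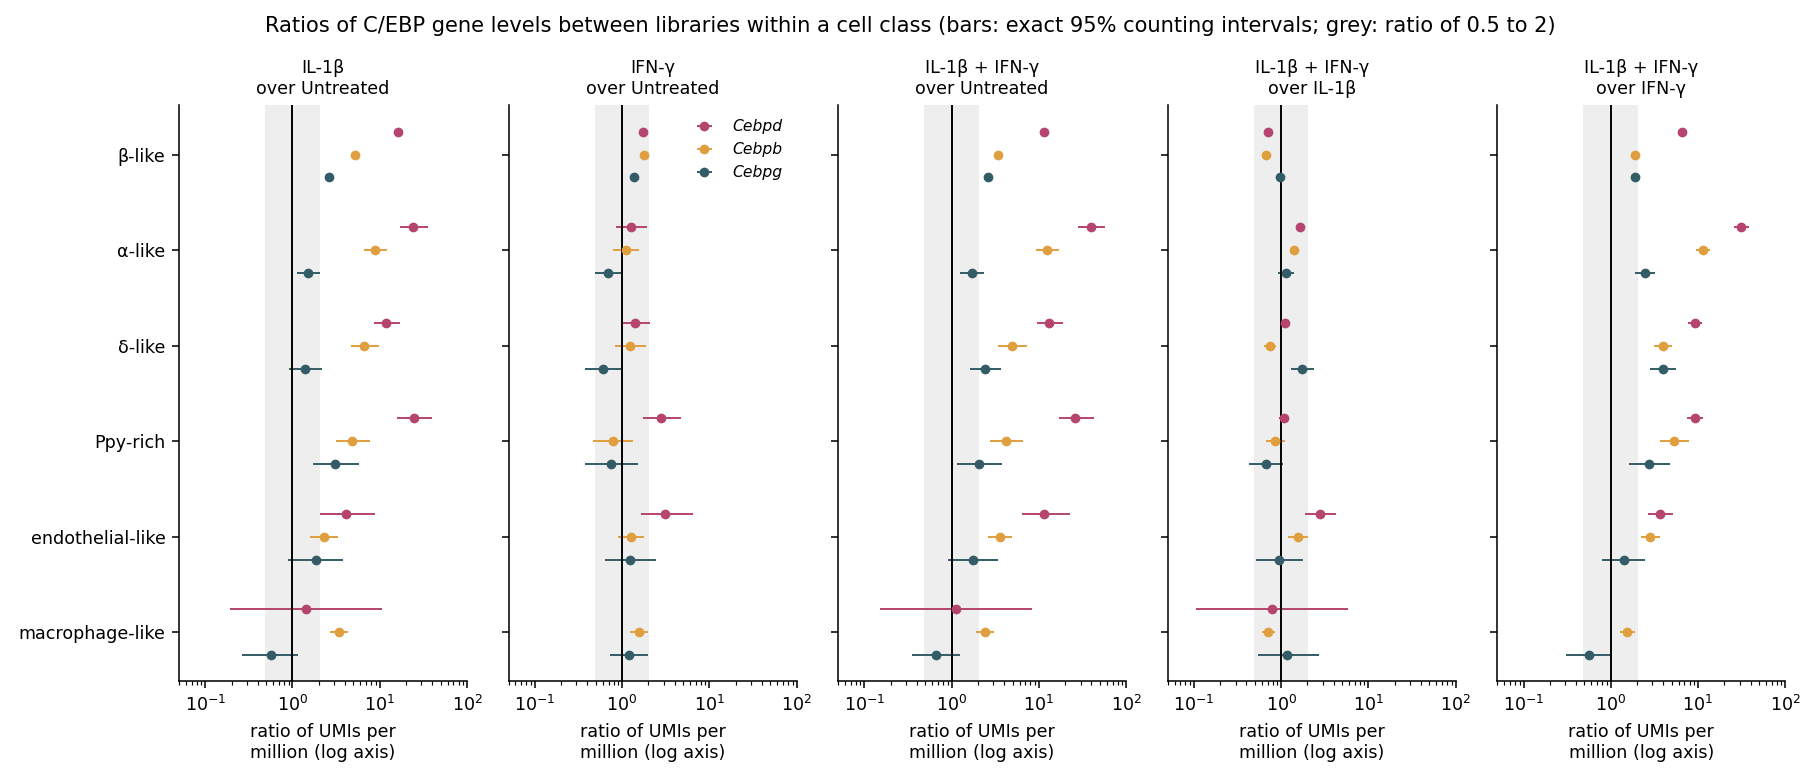
Ratio of CPM (log axis) of *Cebpd*, *Cebpb* and *Cebpg* between libraries in 6 cell classes, with exact 95% counting intervals, for genes with a mean of at least 10 CPM over the pair. In the panel of both cytokines over IL-1β, *Cebpd* lies at 0.713 in β-like cells and at 1.63 in α-like and 2.80 in endothelial-like cells.

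The order of the cell classes differed between *Cebpb* and *Cebpd*. In the untreated library *Cebpb* was highest in mesenchymal-like cells, at 1021 (821 to 1255) CPM, followed by ductal-like (446), macrophage-like (377) and endothelial-like cells (271), whose neighboring intervals overlap. Endocrine classes followed with overlapping intervals at 53.7 to 72.7 CPM. *Cebpd* in the same library ran from 175 CPM in ductal-like cells to 10.1 in macrophage-like cells and 0 (upper bound 36.7) in acinar-like cells, with every neighboring pair of intervals overlapping. With IL-1β, mesenchymal-like cells still held the most *Cebpb*, at 2123 CPM, whereas *Cebpd* was highest in Ppy-rich (1243), δ-like (991), β-like (939.9) and α-like (885) cells. *Cebpd* was lower in ductal-like (621), mesenchymal-like (474) and endothelial-like (245) cells, and lowest in acinar-like (32.1) and macrophage-like (14.3) cells. In the combined library *Cebpd* was at 1439 CPM in α-like cells and 670.3 in β-like cells, with mesenchymal-like cells at 1069. Mesenchymal-like, ductal-like and acinar-like cells were too few for ratios between libraries.

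Over 24 points (6 classes in 4 libraries), the log2(CPM + 1) levels of *Cebpb* and *Cebpd* had a Pearson correlation of 0.09 and those of *Cebpa* and *Cebpd* one of -0.77. For *Cebpb* with *Cebpg* it was 0.57, and for *Cebpd* with *Cebpg* 0.40. The points share libraries and depth, so these values are a description. They include macrophage-like cells, with *Cebpd* at 0 to 14.3 CPM, *Cebpb* at 377 to 1281 and *Cebpa* at 76.5 to 162. In β-like, α-like, δ-like and Ppy-rich cells, *Cebpb* and *Cebpd* were both higher with IL-1β, alone or combined, than untreated. Correlations without macrophage-like cells were not computed. Among 8689 genes, the pattern most like that of *Cebpd* was that of *Rnd3*, at 0.913, followed by *Csf1*, the macrophage growth factor gene, at 0.910, *Tbrg1*, *Ube2e2* and *Mob3c*. *Cebpb* was most like *Adam17*, which encodes the protease that releases TNF, at 0.907, then *Arl8a*, *Litaf*, *Ehd1* and *Smox*. *Cebpa* was most like *Vsir* (0.935), *Abhd12*, *Emilin2*, *Zeb2os* and *Ctss*. Outside macrophage-like cells *Cebpa* was at 9.84 CPM or less in these classes. It thus passed the minimum average of 10 CPM only through macrophage-like cells. A gene found mainly in that class then has to be like it, so its list is no result. *Cebpg* was most like *Slc20a1* (0.830), *Pfkp*, *Pabpc1*, *Fmnl2* and *Sqstm1*, the autophagy receptor gene. With Spearman's rank correlation in place of Pearson's, 4 of these 5 genes were shared for *Cebpd* and *Cebpg*, 2 for *Cebpa* and 1 for *Cebpb*.

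The counts in the gene lists that follow are descriptions, since a gene under 10 CPM in one library can pass the minimum only through the library where it is high and then has to differ. Relatives and bZIP partners of the C/EBP genes were listed as 14 genes. In β-like cells, 4 of 7 above the minimum were past the fold upward with IL-1β and 1 downward, 1 of 7 upward with IFN-γ, and 4 of 8 upward and 1 downward with both, against 17.5%, 3.74% and 11.2% of all genes upward and 2.7% and 5.76% downward with IL-1β and both. The median ratio of those above the minimum was 2.14, 1.27 and 2.28, against 1.35, 1.25 and 1.08 for all genes. Of the 4 upward with both, *Atf3* passed the minimum only through the combined library. Once hormone genes were left out of the totals, the upward counts were 1 of 7, 0 of 8 and 5 of 9. *Cebpe*, the granulocyte family member, had no UMI in β-like, α-like or δ-like cells. *Ddit3*, which encodes the stress-induced C/EBP partner CHOP, was at 60.7, 173, 151 and 259 CPM in β-like cells, with ratios of 2.85, 2.48 and 4.27. *Atf4*, the amino acid stress regulator, was at 155, 396, 249 and 430.4 CPM. Both were thus highest with both cytokines, unlike *Cebpd* and *Cebpb*. *Atf5*, another stress-linked bZIP gene, was at 246, 417, 297 and 440.2 CPM and did not pass the fold. *Atf3*, an early stress gene, was at 0.804, 6.98, 3.72 and 28.9 CPM. *Nfil3*, a bZIP repressor, was at 15.7, 38.2, 14.4 and 57.4 CPM, while *Dbp*, a clock-controlled bZIP activator, was lower with IL-1β, at 50, 10.9, 48.1 and 10.3 CPM.

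Regulators of C/EBP genes or proteins were listed as 20 genes, those of IL-1, IL-6 and IFN-γ signaling, the Tribbles family and *Creb1*. In β-like cells, 13 of 17 above the minimum were past the fold upward for IL-1β, 3 of 14 for IFN-γ and 12 of 17 for both, against 17.5%, 3.74% and 11.2% of all genes, with medians of 3.03, 1.43 and 3.08 against 1.35, 1.25 and 1.08. Of these upward genes, 4, 1 and 4 were under 10 CPM in the untreated library. With hormone genes out of the totals, 9 of 17, 3 of 16 and 11 of 17 were upward. In α-like cells the counts were 8 of 16, 1 of 15 and 9 of 15, against 7.29%, 4.67% and 8.96% of genes. In δ-like cells they were 8 of 17, 1 of 16 and 10 of 17, against 9.9%, 5.05% and 12.2%. *Nfkbia*, the NF-κB inhibitor and target, was at 48.9, 478, 50.6 and 612 CPM in β-like cells. *Nfkbiz*, an NF-κB cofactor, was at 14.3, 192, 39.6 and 169.6 CPM. Its ratio of both cytokines to IL-1β was 0.884 and, with hormone genes left out, 1.02, so the direction depended on the scaling. *Stat3*, which relays IL-6 family signals, was at 148, 334, 215 and 456 CPM. *Il1r1*, the IL-1 receptor gene, was at 240.1, 257, 224 and 95.1 CPM, and only in the combined library was it past the fold downward, at 0.396 (0.373 to 0.420). In α-like cells *Il1r1* was at 258, 450.5, 354 and 232 CPM. In δ-like cells it was at 112, 88.3, 125 and 42.4 CPM. There it was also past the fold downward with both cytokines, at 0.378 (0.232 to 0.605).

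Genes known as C/EBP targets in acute-phase or inflammatory settings were listed as 18 genes. In β-like cells 9 of 9 above the minimum were past the fold upward for IL-1β, 2 of 4 for IFN-γ and 8 of 8 for both, where 17.5%, 3.74% and 11.2% of all genes were. Genes at or near 0 in the untreated library, such as *Cxcl1*, *Nos2* and *Ccl2*, pass the minimum only through the library where they are high, so these counts were largely fixed by the minimum and are no result about the list. *Sod2*, mitochondrial superoxide dismutase, was at 100.3, 1030.5, 116 and 958 CPM, with ratios of 10.3, 1.15 and 9.55. *Lcn2*, the iron-sequestering lipocalin, was at 27.2, 537.5, 34.8 and 389 CPM. For both cytokines over IL-1β, *Lcn2* was at 0.723, or 0.836 with hormone genes left out, whereas *Sod2* was at 0.9297 and 1.08, so its direction depended on the scaling. *Cxcl1*, a neutrophil chemokine, was highest with IL-1β alone, at 0, 258, 1.47 and 145 CPM. *Nos2* and the monocyte chemokine *Ccl2* were instead highest with both cytokines, *Nos2* at 0.0503, 139, 2.53 and 639.6 CPM and *Ccl2* at 0.452, 131, 22.8 and 468.5. In δ-like cells *Ccl2* was at 28.6, 35.6, 28.5 and 485 CPM and past the fold with both cytokines only.

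Targets known from adipose, liver and myeloid cells were listed as 12 genes and were mostly too low in endocrine cells, with 2, 1 and 2 above the minimum in β-like cells. *Lpl*, lipoprotein lipase, was past the fold with IL-1β only, at 143, 325, 236 and 183 CPM with a ratio of 2.28 (2.17 to 2.40), but at 1.67 with hormone genes left out it was not. *Pparg*, the adipocyte regulator, was at 8.65, 13.1, 11.2 and 11.7 CPM, and *Scd1*, a fatty acid desaturase, at 2.36, 1.54, 2.53 and 1.497. In α-like cells *Lpl* was at 326, 713, 417 and 419.9 CPM.

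Amino acid stress genes linked to ATF4 were listed as 10 genes. In β-like cells 5 of 10 above the minimum were past the fold upward for IL-1β, 1 of 9 for IFN-γ and 3 of 9 for both, against 17.5%, 3.74% and 11.2% of all genes. Their medians were 1.97, 1.23 and 1.71, against 1.35, 1.25 and 1.08 for all genes. Of the upward genes, 2, 1 and 1 were under 10 CPM in the untreated library, among them *Psat1*, the only one upward for IFN-γ. Without hormone genes in the totals, 4 of 10, 0 of 9 and 4 of 10 were upward. *Chac1*, which degrades glutathione, was at 16.1, 70.4, 32.1 and 74.5 CPM, and *Psat1*, of serine synthesis, at 6.23, 26.6, 14.4 and 23.4. *Slc7a11*, the cystine transporter, was at 1.76, 45.1, 3.79 and 16.5 CPM, and *Vldlr*, a lipoprotein receptor, at 38.9, 135, 56.4 and 38.1. These last 2 were lower with both cytokines than with IL-1β. *Slc3a2*, a partner of amino acid transporters, was at 124, 272, 168 and 322 CPM. *Asns*, asparagine synthetase, did not pass the fold at 97.2, 169, 111 and 167 CPM. In δ-like cells under IFN-γ, 5 of 8 were past the fold downward, against 6.11% of genes. Among them *Chac1* was at 26.4 CPM untreated and 4.46 with IFN-γ, from only 12 and 5 UMIs. Its ratio was 0.169 (0.0466 to 0.515). Of these 5, *Chac1* and *Ddit4* were under 10 CPM with IFN-γ and passed the minimum only through the untreated library. *Cebpg* in the same cells was at 70.5 and 42.8 CPM, a ratio of 0.608 with a counting interval of 0.381 to 0.982, inside the fold.

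**Figure D5:**
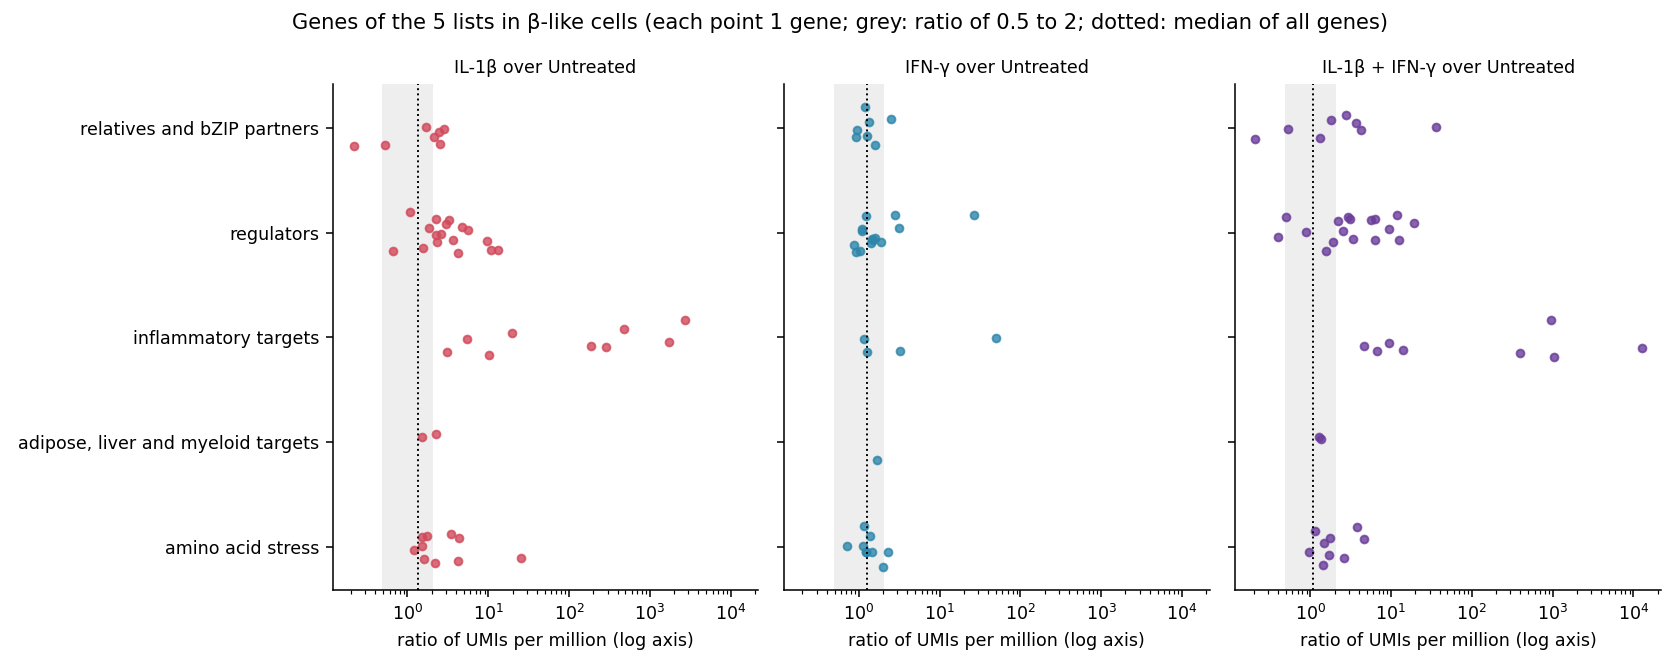
Ratio of CPM to the untreated library (log axis) in β-like cells for each gene above the minimum in the 5 lists, with 1 point per gene, a grey band from 0.5 to 2 and a dotted line at the median of all genes. Of the regulators, 13 of 17 lie to the right of the band with IL-1β and 3 of 14 with IFN-γ, including 4 and 1 that were under 10 CPM in the untreated library.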

How the data were processed

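The authors deposited raw UMI counts per gene and barcode, without normalization, which the submitters' processing notes assign to Cell Ranger and mm10. The matrix headers give software version 3.0.0. The reagent kit is v3 in the paper and v2 in the labels. The columns of other samples numbered 0.

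Of 12571 barcodes, 7471 passed the limits of 200 to 4000 genes and 12% mitochondrial UMIs, fewer than the study kept with the same limits, and why was not tested. Endocrine classes were set by hormone UMIs above 3% (insulin), 1% (glucagon), 0.3% (somatostatin) and 5% (pancreatic polypeptide) of a cell's UMIs, chosen after seeing the hormone distributions and without the C/EBP values. Within 2-fold of these limits were 3.68%, 0.348%, 0.468% and 4.63% of cells, the last of these being more cells than the class holds. Other classes needed at least 4 detected markers, and a lead of 2 over any other class. No doublet caller was applied in the main analysis. Levels are summed UMIs scaled to 1000000 (CPM) with exact Poisson intervals, shares have exact binomial (Clopper-Pearson) intervals, and ratios have exact conditional intervals. A gene at 0 was set to a floor of 3 UMIs per library for a ratio in the lists. Levels were compared within a gene, since 3′ counts carry no length correction. For shares at 1 depth, cells were thinned to 4000 UMIs.

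The members, lists and tests were chosen with earlier results of these data known. Of each list, the 3 genes with the highest mean level in β-like cells and up to 3 with the largest ratio past the fold in each direction are named, and of the genes most like each member the leading 5. Some genes that these rules pick are not reported here. Alternatives were no upper gene limit, 20% mitochondrial UMIs, thinning, Louvain clusters (resolution 1.6) found without the C/EBP genes, doublets called by Scrublet removed, hormone genes left out of the totals, means over cells, a minimum of 1 or 50 CPM, an ln difference of 0.5, and Spearman's rank correlation. Scripts used Python 3.11.15, numpy 2.4.6, scipy 1.17.1, pandas 2.3.3, scanpy 1.11.5 and igraph 0.11.9, and were tested on simulated data. Total UMIs were 50731370 (untreated), 20056630 (IL-1β), 31209339 (IFN-γ) and 25716645 (both).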

Additional observations from a re-analysis of the deposited data

Results flagged for a closer look

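Several C/EBP ratios between the same pair of libraries ran in opposite directions in different cell classes, with counting intervals that excluded 1. With both cytokines against IL-1β alone, *Cebpd* was lower in β-like cells (0.713) and higher in α-like (1.63), δ-like (1.11) and endothelial-like cells (2.80). For the same pair, *Cebpb* was lower in β-like (0.666), δ-like (0.741) and macrophage-like cells (0.711) and higher in α-like (1.42) and endothelial-like cells (1.55). With hormone genes out of the totals, *Cebpd* was at 0.825 in β-like and at 1.09 (0.982 to 1.20) in δ-like cells, which no longer excluded 1, and without the upper gene limit *Cebpb* in endothelial-like cells was at 0.973. With IFN-γ against untreated, *Cebpg* was higher in β-like cells (1.37, or 1.09 with hormone genes left out) and lower in α-like (0.694) and δ-like cells (0.608). With both cytokines against IFN-γ alone, *Cebpa* was lower in macrophage-like cells (0.486) and higher in β-like cells (4.02), the latter from only 13 and 3 UMIs. With 1 library per condition, these differences between classes were not tested.

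*Cebpb*, *Cebpd* and *Cebpg* also had levels above the untreated library in cells that the mitochondrial limit removed. In insulin-led cells over this limit, numbering 409, 187, 243 and 95 in the order untreated, IL-1β, IFN-γ and both, *Cebpd* was at 33.0 CPM untreated and at 686, 90.5 and 369 after the cytokines. *Cebpb* was at 30.3 CPM untreated and at 230.3, 97.3 and 168 with the cytokines, and *Cebpg* at 62.2 untreated and at 199, 113 and 148. *Cebpa* had 1, 0, 2 and 1 UMIs in these cells. The median depth of these cells was 3096, 4700, 6542 and 2054 UMIs.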

How the results depend on the processing

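No C/EBP ratio past the fold reversed its direction under an alternative. Of all 676 values of member ratios under alternatives, 22 (of 18 ratios) lay on the other side of 1. They include *Cebpg* in β-like cells for both cytokines over IL-1β, at 1.13 with hormone genes out of the total against 0.976, and *Cebpb* in endothelial-like cells for the same pair, at 0.973 without the upper gene limit against 1.55, the only one of them whose counting interval excluded 1. Of the 676 values, 637 moved by less than the counting interval and 39 by more. Of 43 member ratios past the fold, 34 stayed past it under every alternative that gave a value, and 9 did not. Calls were lost for *Cebpb* in endothelial-like cells with IL-1β, with both, and for both over IFN-γ (1.97), for *Cebpd* there with IFN-γ, for *Cebpg* in β-like cells with IL-1β, in δ-like cells with both and in Ppy-rich cells with both and for both over IFN-γ, and for *Cebpa* in macrophage-like cells for both over IFN-γ. Thinning gave larger ratios for *Cebpd* in α-like cells, at 41.3 with IL-1β and 67.8 with both, in endothelial-like cells with IFN-γ (5.91), and for *Cebpg* in Ppy-rich cells with IL-1β (5.25). In the thinned untreated library the gene had a UMI in 8.75% of 80, 7.41% of 27 and 10.3% of 29 cells, respectively. These larger ratios thus rest on few untreated UMIs. With hormone genes out of the total, the β-like ratios to the untreated library with IL-1β, IFN-γ and both were 3.77, 1.44 and 2.90 for *Cebpb*, 11.8, 1.39 and 9.70 for *Cebpd*, and 1.93, 1.09 and 2.18 for *Cebpg*. As means over cells they were 4.15, 1.54 and 2.86 for *Cebpb*, and 14.2, 1.62 and 10.6 for *Cebpd*. With no upper gene limit *Cebpd* gave 14.96, 1.55 and 10.6, and thinned to 4000 UMIs it gave 1.61 with IFN-γ. Genes past the fold upward in β-like cells numbered 1301, 276 and 801. With hormone genes out of the total there were 562 with IL-1β and 179 with IFN-γ. A minimum mean of 1 CPM gave 2010, 655 and 1309 genes, one of 50 CPM 468, 88 and 302, and an ln difference of 0.5 gave 225, 57 and 203. Except where an alternative tested other genes or changed the total by construction, the cause was not tested. Scrublet called 3.16%, 1.04%, 0.943% and 0.939% of kept cells doublets. No paired analysis was possible because each condition had 1 library, and no library could be left out for the same reason. *Cebpa* outside macrophage-like cells, and *Cebpd* within them, rest on few UMIs per library. Of 135 list counts under alternatives, 41 moved by over 1.5 times.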
